A study of Homo sapiens with 24 samples.

Results

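Aminoacyl-tRNA synthetases were chosen by gene symbol, as the amino acid letter followed by ARS, with EPRS, FARSA, and FARSB, for the cytosolic enzymes and by the ending ARS2 for the mitochondrial ones. The rule found 37 of the 26645 gene entries counted, 20 cytosolic and 17 mitochondrial, and all 37 were among the 14741 genes tested. Symbols are those of the count table, so that MARS is the current MARS1 and QARS the current QARS1. The RNA-seq libraries numbered 24, in 8 groups of 3. The cells were MDA-MB-468 (MB468), a triple-negative breast cancer line that depends on Met, and MDA-MB-468res-R8 (MB468res-R8), a Met-independent line derived from it by long culture in Hcy and kept as 1 clone. Cells were grown in DMEM with dialyzed serum, vitamin B12, glutamine, cysteine, and 100 µM Met (Met+, collected at 0 h), or moved to the same medium with 370 µM DL-homocysteine in place of Met (Met-Hcy+) and collected at 0.5, 2, and 12 h. Cells left in Met+ medium for 0.5, 2, or 12 h were not among the libraries, so the loss of Met, the added Hcy, the change of medium, and the time in culture cannot be told apart. The labels do not say whether the 3 libraries of a group came from separate cultures, so p-values measure the spread between these libraries only.

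Aminoacyl-tRNA synthetases join each amino acid to its tRNA, the step before elongation at the ribosome. The cytosolic and the mitochondrial set are both encoded in the nucleus, and MARS and MARS2 are the enzymes that charge tRNA with Met, for cytosolic and for mitochondrial translation. Several cytosolic enzymes sit with the scaffold proteins AIMP1, AIMP2, and EEF1E1 in the multisynthetase complex, and many cytosolic synthetase genes are known targets of ATF4, the transcription factor that is translated when uncharged tRNA or endoplasmic reticulum stress leads to phosphorylation of eIF2α.

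Promoters are shown because the letters TGATGNAA, the element that ATF4 binds with C/EBP partners, set several cytosolic members apart from the mitochondrial ones. RefSeq windows of 250 bases before to 50 bases after a start site (GRCh38.p14) were found for 30 of the 37 members, in 39 windows. AARS2, DARS, LARS, VARS, VARS2, and YARS were among those without one. Both strands were searched for TGATGNAA, which reads TTNCATCA on the other strand, and no other motif was sought. It was present for 7 of the 16 cytosolic genes with a window (43.8%), for 1 of the 14 mitochondrial genes (7.14%), and for 1217 of all 27305 genes in the table (4.46%). Counted by window, 3.62% of all 35116 windows held it. Capitals mark the match in the 300 bases of MARS, where it starts 4 bases before the annotated start, and the window of MARS2 is set beside it as the mitochondrial counterpart without a match.
MARS (chr12:57487818-57488117, plus strand): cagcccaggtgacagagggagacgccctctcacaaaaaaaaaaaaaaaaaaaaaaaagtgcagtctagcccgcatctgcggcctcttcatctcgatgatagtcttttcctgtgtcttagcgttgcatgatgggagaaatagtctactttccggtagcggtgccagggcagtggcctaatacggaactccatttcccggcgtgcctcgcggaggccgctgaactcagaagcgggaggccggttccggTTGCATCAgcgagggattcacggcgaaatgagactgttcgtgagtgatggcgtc
MARS2 (chr2:197705119-197705418, plus strand): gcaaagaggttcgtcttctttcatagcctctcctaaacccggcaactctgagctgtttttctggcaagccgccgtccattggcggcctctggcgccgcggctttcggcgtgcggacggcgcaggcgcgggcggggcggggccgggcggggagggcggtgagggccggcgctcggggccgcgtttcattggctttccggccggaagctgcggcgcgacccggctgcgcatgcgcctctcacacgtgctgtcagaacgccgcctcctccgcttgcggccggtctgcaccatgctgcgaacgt
The stretches around the match in the other cytosolic genes are shown with that of YARS2, the mitochondrial gene that held it.
AARS (chr16:70289670-70289709, minus strand): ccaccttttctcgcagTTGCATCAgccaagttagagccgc
CARS (chr11:3057402-3057441, minus strand): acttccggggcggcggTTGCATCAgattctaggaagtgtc
GARS (chr7:30594829-30594868, plus strand): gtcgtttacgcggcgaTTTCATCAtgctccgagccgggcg
IARS (chr9:92293687-92293726, minus strand): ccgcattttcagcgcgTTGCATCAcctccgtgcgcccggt
NARS (chr18:57621799-57621838, minus strand): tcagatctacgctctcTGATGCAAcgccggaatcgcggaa
TARS (chr5:33440951-33440990, plus strand): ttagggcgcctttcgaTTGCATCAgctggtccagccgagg
YARS2 (chr12:32756071-32756110, minus strand): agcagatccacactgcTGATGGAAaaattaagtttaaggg
Of these 8 genes, AARS, CARS, IARS, MARS, NARS, and TARS shared the form TTGCATCA or its complement TGATGCAA, whereas GARS held TTTCATCA and YARS2 held TGATGGAA. The match started within 33 bases of the annotated start in the 6 genes CARS, GARS, IARS, MARS, NARS, and TARS, and 187 and 197 bases before it in AARS and YARS2. A match describes letters in the window and does not show that a factor was bound.

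Libraries held 11745553 to 36496655 counts on genes and spike-ins together (median 20503827). Epithelial genes marked every library, with EPCAM, a surface protein of epithelia, at 6510 to 9940 normalized counts and PTPRC, the pan-leukocyte gene, at no more than 4.53. PGR, the progesterone receptor, had no more than 2.24, whereas the receptor genes ESR1 and ERBB2 had 94.5 to 513 and 872 to 2210. COL1A1, a collagen gene, had 331 to 1660, and COL1A2 had no more than 1.4. The MB468 2 h replicate 2 library stood apart with 16030 normalized counts of the non-coding RNA RN7SK against 58.1 to 231 in the others, so that results at 2 h are given with and without it. Scaling by the spike-ins moved the median over all genes, as a log2 fold change, to -0.31 for the lines at 0 h, to -0.20, -0.42, and -0.23 for MB468 at 0.5, 2, and 12 h, and to 0.04, -0.04, and 0.00 for MB468res-R8. Changes below are therefore relative to the bulk of genes in a library, and counts with the spike-in scaling are given where they divide differently. Normalized counts are counts scaled to a common library size, and genes counted as called where edgeR's quasi-likelihood test, adjusted by Benjamini-Hochberg over all genes, gave a p under 0.05.

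VARS and VARS2 had too few counts to be read like the rest, and the change of CARS had a larger error than that of PARS2, which had fewer counts. VARS, the valyl enzyme (chr6:31777518-31795752), had a median of 16.5 raw counts per library and VARS2 (chr6:30914205-30926459) a median of 6.5, whereas the median of CARS, the cysteinyl enzyme (chr11:3000922-3057613), was 278, above that of PARS2 at 177.5. The SE of the log2 change at 12 h in MB468 was 0.21 for CARS and 0.096 for PARS2. In VARS, 1 library of the 3 held most of the counts in several groups, as in MB468 at 0.5 h with 11.9, 492, and 21.2 normalized counts. These were also the 3 members whose transcript has a copy on alternate contigs of GRCh38, 5 contigs for VARS, 5 for VARS2, and 1 for CARS, against 0 for the other 34. Whether such copies lowered their counts was not tested. Exons also overlap those of neighbours on the opposite strand, and the library kit does not mark strand. MARS shares 355 of its 7028 exonic bases with DDIT3 and 519 with ARHGAP9, and HARS and HARS2 share 108 bases with each other. SARS2 lies for 48.2% of its exonic bases under a second annotated gene on its own strand, and VARS2 for 63% under a long non-coding gene on its own strand. YARS2 shares 18.1% with a long non-coding gene on the other strand. None of these neighbours was found by name in the count table.

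Per kilobase of exon, cytosolic members stood above mitochondrial ones in Met+ medium in both lines. In MB468 at 0 h the median was 1119 normalized counts per kilobase over the 20 cytosolic members and 185 over the 17 mitochondrial ones, and in MB468res-R8 the medians were 1132 and 178. The ranges overlapped. IARS2, the mitochondrial isoleucyl enzyme, led its class with 1361 per kilobase in MB468 and 1387 in MB468res-R8, levels above the cytosolic median. EPRS, the bifunctional enzyme for glutamate and proline, was the highest cytosolic member in MB468 at 2812 per kilobase, and SARS, the seryl enzyme, was the highest in MB468res-R8 at 2189. With the length of the longest transcript in place of the exon union, SARS was highest in both lines (4359 and 4401 per kilobase) and EPRS ranked 6 in MB468 at 3079. MARS held 1653 per kilobase in MB468 and 1470 in MB468res-R8, above the cytosolic median in both, and MARS2 held 317 and 195.

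**Figure D1:**
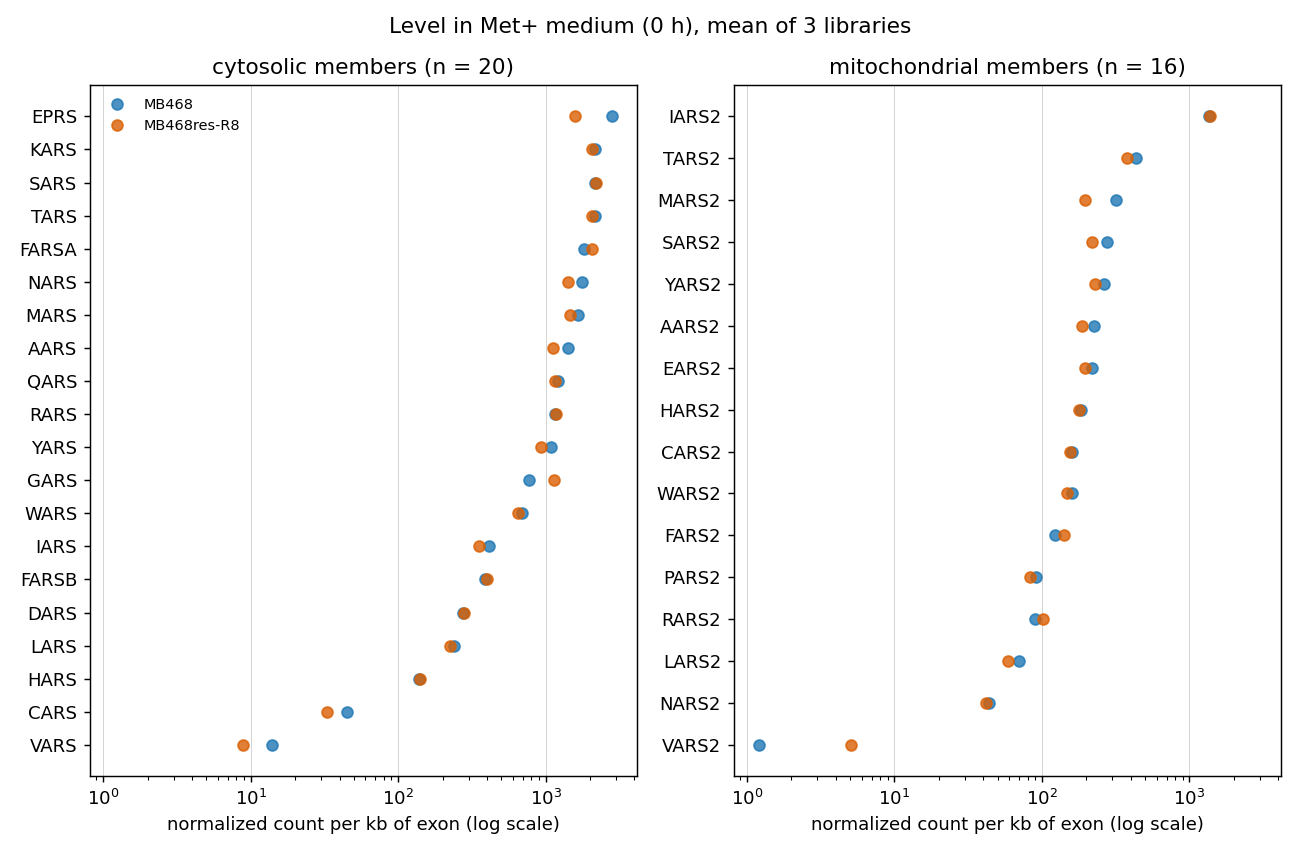
Level of members in Met+ medium. Each point is the mean of 3 libraries of MB468 (blue) or MB468res-R8 (orange) in normalized counts per kilobase of exon on a log axis, cytosolic members on the left and mitochondrial members on the right, and the medians of all cytosolic and all mitochondrial members are 1119 and 185 in MB468.

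In Met+ medium the members differed between the lines more often downward than upward in MB468res-R8. Against MB468 at 0 h, 2 of 20 cytosolic members were higher and 6 lower, and 3 of 17 mitochondrial members were higher and 7 lower, beside 26.4% and 27.1% of all genes. The cytosolic and mitochondrial medians were -0.09 and -0.10 on the log2 scale against a median near 0 over all genes, and with the spike-in scaling 0 cytosolic and 0 mitochondrial members were higher and 13 and 12 lower, which turned members such as FARSA (-0.12), FARS2 (-0.11), and RARS2 (-0.12) to the lower side without a call.

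EPRS (chr1:219968600-220046530) had 14330, 14980, and 15610 normalized counts in the MB468 libraries and 8440, 8492, and 8282 in those of MB468res-R8. The groups did not overlap, and the log2 difference was -0.83 ± 0.039 (SE), adjusted p = 2.98e-21. GARS, which charges glycine in the cytosol and in mitochondria (chr7:30580533-30634033), went the other way with 12940, 12900, and 14140 in MB468 and 19030, 21640, and 18960 in MB468res-R8, a log2 difference of 0.58 ± 0.046 (SE), adjusted p = 1.41e-13. AARS, the alanyl enzyme (chr16:70251983-70289707), was lower in every MB468res-R8 library, with 14030, 14370, and 14950 against 11190, 12020, and 11170 and a log2 difference of -0.33 ± 0.044 (SE), adjusted p = 2.54e-08. Of the mitochondrial members called, the 3 with the largest differences after MARS2 were all lower in MB468res-R8. SARS2, the seryl enzyme (chr19:38915266-38930763), had 886, 853, and 832 in MB468 and 703, 698, and 639 in MB468res-R8, a log2 difference of -0.33 ± 0.074 (SE), adjusted p = 0.000215. AARS2 (chr6:44298731-44313347) had 1169, 1190, and 1179 and 992, 981, and 947, a log2 difference of -0.28 ± 0.059 (SE), adjusted p = 0.000136. LARS2, the leucyl enzyme (chr3:45388561-45554726), had 866, 899, and 825 and 702, 767, and 706, a log2 difference of -0.26 ± 0.059 (SE), adjusted p = 0.000309. In each of these 3 genes the libraries of the lines did not overlap, as held for 29.6% of all genes tested upward and 30.4% downward.

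Relative to the bulk of genes, MARS held its level for 2 h in both lines and was lower at 12 h in MB468res-R8. MARS (chr12:57475445-57517569, plus strand) had 11480, 11600, and 11780 normalized counts in MB468 at 0 h, 11140, 11000, and 11920 at 0.5 h, 12120, 12240, and 11670 at 2 h, and 11500, 11610, and 11060 at 12 h. These 12 libraries spanned a narrow band, and the log2 change against 0 h was -0.03 at 0.5 h, 0.05 at 2 h, and -0.03 ± 0.040 (SE), adjusted p = 0.523, at 12 h, none of them called. With the spike-in scaling, MARS turned to the lower side in MB468 at 2 h. In MB468res-R8 it had 10260, 10980, and 9758 at 0 h, 10240, 10440, and 10370 at 0.5 h, 10360, 11210, and 11000 at 2 h, and 6637, 6794, and 6598 at 12 h. The 3 libraries at 12 h lay below all others of either line, with a log2 change of -0.63 ± 0.040 (SE), adjusted p = 6.55e-17. The response at 12 h differed between the lines by -0.60 ± 0.056 (SE), adjusted p = 5.41e-12, whereas the differences at 0.5 and 2 h were 0.04 and 0.02 and were not called. With the spike-in scaling, MARS was not called lower in the line difference at 12 h. At 0 h MARS was already lower in MB468res-R8 by a log2 difference of -0.17 ± 0.040 (SE), adjusted p = 0.000425.

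Among the cytosolic members MARS was near the middle in MB468 and near the bottom in MB468res-R8 at 12 h. Its rank from the lowest log2 change was 14 of 20 in MB468 at 12 h, where the median of the other 19 was -0.13, and 3 of 20 in MB468res-R8, where that median was -0.11. Only VARS, with its few counts, and AARS ranked lower there. Of all counts on cytosolic members, MARS took 8.45% ± 0.0826 (SD, n = 3) in MB468 at 0 h and 8.66% ± 0.242 at 12 h, and 8.07% ± 0.283 and 5.87% ± 0.0815 in MB468res-R8. DDIT3, which overlaps MARS and encodes CHOP, went from 80.9 ± 10.7 normalized counts (SD, n = 3) to 431 ± 18.4 in MB468, a log2 change of 2.39 ± 0.12 (SE), adjusted p = 5.31e-21, and stood at 101 ± 10.1 and 119 ± 16.9 in MB468res-R8. Its part in the MARS counts was not tested.

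MARS2 moved within 0.5 h in both lines, and the lines parted at 2 h. MARS2, a gene of 1 exon (chr2:197705369-197708395, plus strand), had 903, 1071, and 908 normalized counts in MB468 at 0 h and 555, 574, and 552 at 0.5 h, a log2 change of -0.78 ± 0.072 (SE), adjusted p = 8.98e-12. At 2 h it had 452, 558, and 558, a change of -0.89 ± 0.074 (SE), adjusted p = 2.05e-12, and at 12 h it was back in the range of 0 h with 1056, 1070, and 1016 and a change of 0.12 ± 0.066 (SE), adjusted p = 0.105. The 6 libraries at 0.5 and 2 h lay below those at 0 and 12 h. In MB468res-R8 the level at 0 h was 606, 569, and 596, lower than in MB468 by a log2 difference of -0.70 ± 0.070 (SE), adjusted p = 2.98e-11. It was 399, 424, and 386 at 0.5 h, with a change of -0.55 ± 0.076 (SE), adjusted p = 1.36e-07. At 2 h it was 689, 713, and 677, above every library at 0 h with a change of 0.23 ± 0.072 (SE), adjusted p = 0.0554, and at 12 h it was 755, 713, and 741, with a change of 0.32 ± 0.071 (SE), adjusted p = 0.000193. The line difference in response was 0.23 ± 0.10 (SE), adjusted p = 0.336 at 0.5 h and 1.12 ± 0.10 (SE), adjusted p = 1.12e-10 at 2 h. Without the MB468 2 h replicate 2 library, the change of MARS2 in MB468 at 2 h was -0.93 and the line difference 1.16.

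**Figure D2:**
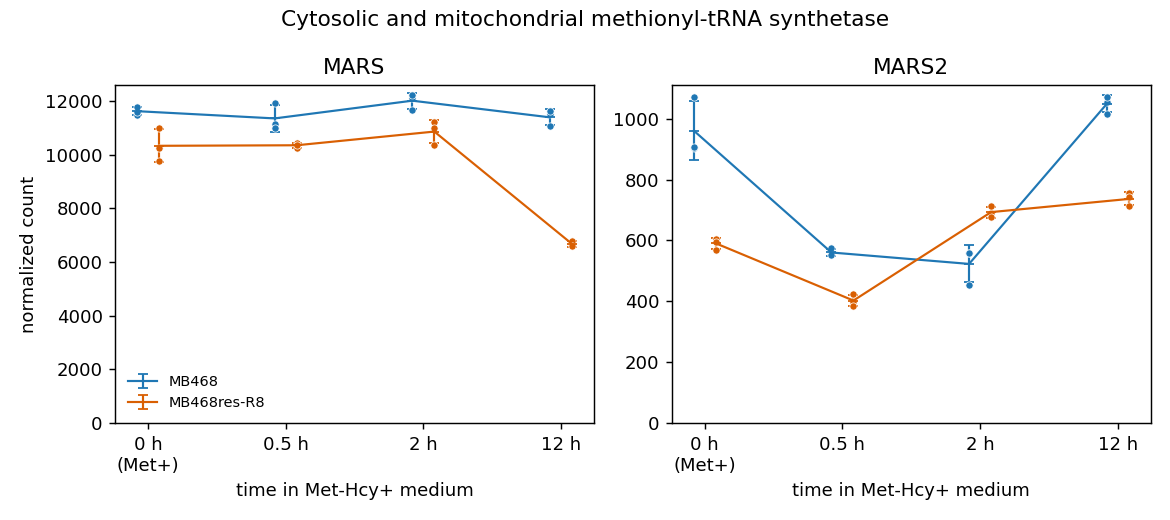
MARS and MARS2 over time. Points are single libraries in normalized counts, and lines join group means with SD (n = 3) for MB468 (blue) and MB468res-R8 (orange) at 0 h in Met+ medium and 0.5, 2, and 12 h in Met-Hcy+ medium; MARS drops to 6676 ± 104 at 12 h in MB468res-R8, and MARS2 dips at 0.5 h in both lines and at 2 h in MB468.

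At 0.5 h the share of members called was close to that of all genes, and after CARS and MARS2 the largest called change was that of YARS2 in MB468. In MB468, 3 of 20 cytosolic members were higher and 3 lower and 1 of 17 mitochondrial members was higher and 4 lower, beside 17.6% and 16.4% of all genes. AARS (0.23), SARS (0.12), and TARS, the threonyl enzyme (0.12), rose, and CARS (-0.81) and the phenylalanyl subunits FARSA (-0.14) and FARSB (-0.14) fell, on the log2 scale. CARS had 534, 519.5, and 295 normalized counts at 0 h and 257, 215, and 327 at 0.5 h, so that its groups overlapped at adjusted p = 0.0102. It had 344, 385, and 300.5 at 2 h in MB468, and in MB468res-R8 300, 352, and 336 at 0 h, 384, 335, and 343 at 0.5 h, and 252, 428, and 353 at 2 h, with no change called. Of the mitochondrial members, IARS2 (0.14) rose, and CARS2 (-0.14), the glutamyl enzyme EARS2 (-0.28), YARS2, the tyrosyl enzyme (-0.35), and MARS2 fell. With the spike-in scaling, 0 cytosolic and 0 mitochondrial members were higher and 4 and 6 lower, and SARS (-0.10), TARS (-0.09), and IARS2 (-0.08) turned to the lower side without a call. In MB468res-R8 at 0.5 h, 3 cytosolic members were higher and 1 lower and 4 mitochondrial members were higher and 3 lower, beside 17.4% and 16.3% of all genes. AARS (0.16), TARS (0.12), and NARS, the asparaginyl enzyme (0.10), rose and FARSA (-0.18) fell, and HARS2 (0.24), IARS2 (0.12), and LARS2 (0.15) were among the mitochondrial members that rose while CARS2 (-0.17), EARS2 (-0.23), and MARS2 fell. With median-of-ratios size factors the calls were 2 higher and 1 lower for the cytosolic and 1 higher and 4 lower for the mitochondrial members, and with the spike-in scaling 1 mitochondrial member was lower and no other was called. The line difference at 0.5 h was called for 0 of 20 cytosolic and 0 of 17 mitochondrial members in edgeR's quasi-likelihood test and in DESeq2's Wald test, for 1 and 2 at an unadjusted p under 0.05, and for 1.2% of all genes upward and 1.7% downward.

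At 2 h MARS2 had the largest called change. In MB468, 1 cytosolic member was higher and 0 lower and 0 mitochondrial members were higher and 3 lower, beside 8.88% and 7.47% of all genes. The calls were TARS (0.21 ± 0.039 (SE), adjusted p = 0.000116), and MARS2, EARS2 (-0.25), and YARS2 (-0.27). TARS had 9098, 9138, and 9146 normalized counts at 0 h and 10400, 10720, and 10460 at 2 h, which did not overlap, but with the spike-in scaling its change was -0.21 and was not called. Without the MB468 2 h replicate 2 library the counts of calls were 1 cytosolic and 2 mitochondrial. Under spike-in scaling 18 cytosolic and 16 mitochondrial members were lower and 0 and 0 higher, as the median of all genes moved by -0.42 too. In MB468res-R8 at 2 h, 0 members of either class were called in edgeR's quasi-likelihood test, beside 2.52% of all genes higher and 1.85% lower, 0 cytosolic and 3 mitochondrial members had an unadjusted p under 0.05, and DESeq2's Wald test called 0 and 1. The line difference at 2 h was called higher for MARS2 and lower for 0 members, beside 2.19% and 2.88% of all genes, and for 0 cytosolic members, of which 1 had an unadjusted p under 0.05 and DESeq2's Wald test called 0.

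By 12 h most members were called changed, as were most of all genes, and cytosolic and mitochondrial members leaned opposite ways in both lines. In MB468, 5 of 20 cytosolic members were higher and 10 lower, with a median log2 change of -0.12, whereas 9 of 17 mitochondrial members were higher and 6 lower, with a median of 0.26, beside 36.1% and 34.7% of all genes and a median of 0.01. In MB468res-R8, 6 cytosolic members were higher and 9 lower (median -0.14) and 11 mitochondrial members were higher and 2 lower (median 0.24), beside 30.2% and 31.1% and a median of -0.02. With the spike-in scaling the counts in MB468 were 1 and 12 for the cytosolic members (median -0.36) and 4 and 6 for the mitochondrial ones (median 0.02), and in MB468res-R8 they were 6 and 5 (median -0.12) and 8 and 0 (median 0.27). Of the 13 amino acids other than valine whose enzymes share a letter in both compartments, the mitochondrial member had the larger log2 change for 8 in MB468, with a median difference of 0.28, and for 10 in MB468res-R8, with a median difference of 0.56. Cytosolic members took 0.606% ± 0.0155 (SD, n = 3) of all gene counts in MB468 at 0 h and 0.613% ± 0.00130 at 12 h, and 0.559% ± 0.0150 and 0.489% ± 0.0141 in MB468res-R8. For the mitochondrial members the share was 0.0988% ± 0.00110 at 0 h and 0.108% ± 0.00121 at 12 h in MB468, and 0.0956% ± 0.00176 and 0.111% ± 0.00200 in MB468res-R8.

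**Figure D3:**
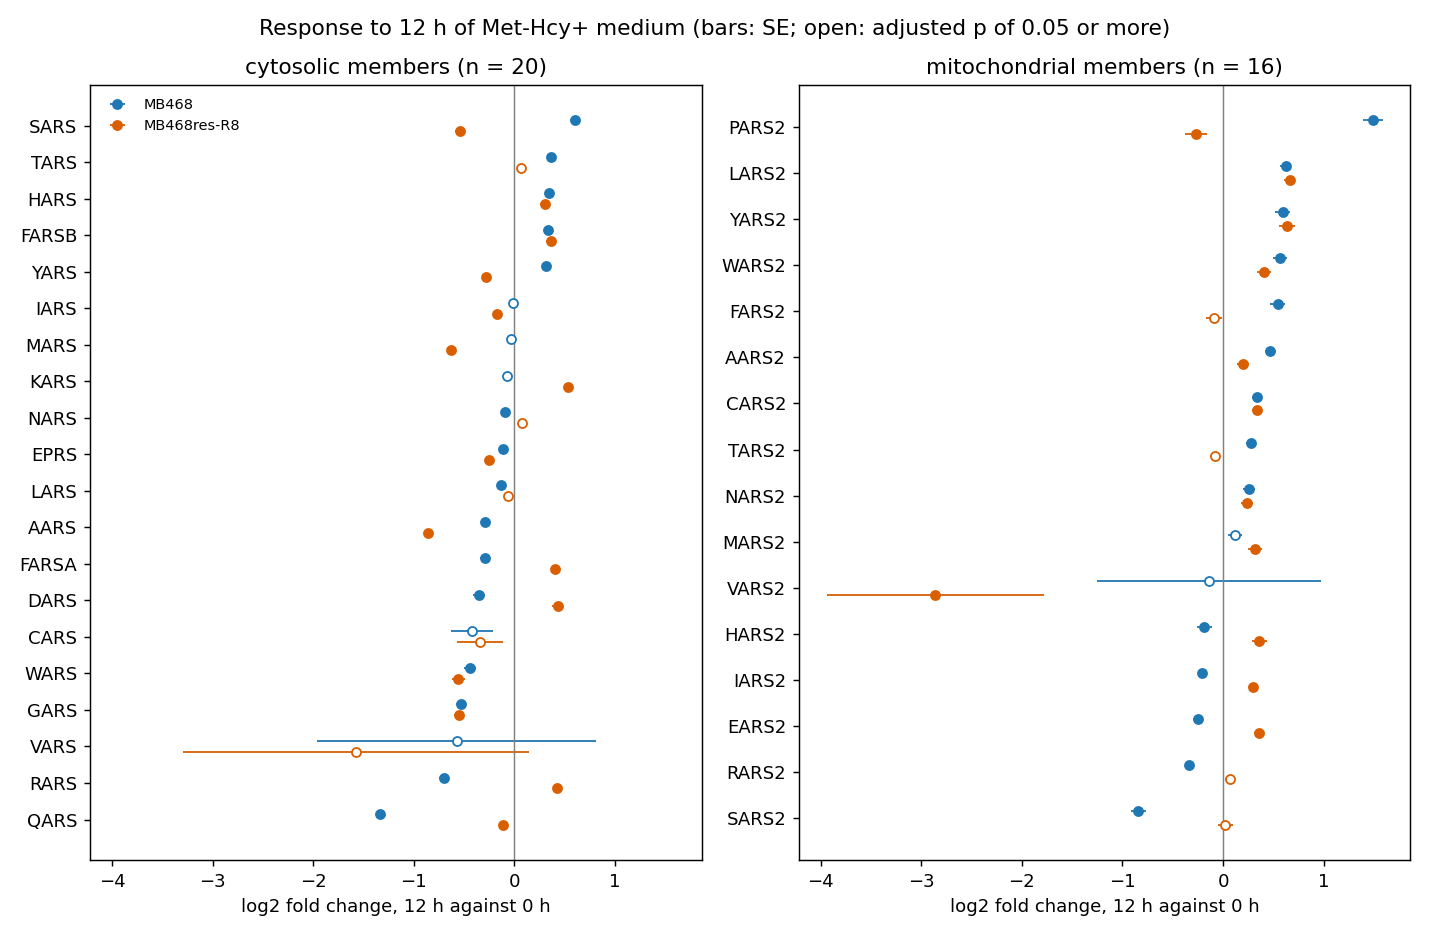
Response of members at 12 h. Points are log2 fold changes against 0 h with SE in MB468 (blue) and MB468res-R8 (orange), filled where the adjusted p is under 0.05, ordered by the value in MB468; QARS is at -1.33 in MB468 and -0.11 in MB468res-R8, and PARS2 at 1.49 and -0.27.

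The members called at 12 h were not moved alike in the lines. Of the cytosolic members, 5 were lower in both lines (AARS, EPRS, GARS, QARS, and WARS, the tryptophanyl enzyme) and 2 were higher in both (FARSB and HARS, the histidyl enzyme). SARS and YARS, the tyrosyl enzyme, were higher in MB468 and lower in MB468res-R8, and DARS, the aspartyl enzyme, FARSA, and RARS, the arginyl enzyme, were lower in MB468 and higher in MB468res-R8. The line difference, which is positive where MB468res-R8 had the larger log2 change, was called for all 5 of these and in all for 6 cytosolic members upward and 7 downward and 6 mitochondrial members upward and 4 downward, beside 26.2% and 30.3% of all genes. Under spike-in scaling the counts upward and downward were 6 and 1 for the cytosolic and 6 and 1 for the mitochondrial members, and EPRS (0.13) and IARS, the isoleucyl enzyme (0.10), turned to the higher side without a call. The line differences of YARS and MARS were then not called lower, and 1 cytosolic member was called higher in MB468 at 12 h.

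QARS, the glutaminyl enzyme (chr3:49095932-49105130), had 5797, 5612, and 5694 normalized counts in MB468 at 0 h, 5544, 5631, and 5885 at 0.5 h, 5756, 5728, and 5602 at 2 h, and 2239, 2241, and 2310 at 12 h, a log2 change of -1.33 ± 0.042 (SE), adjusted p = 2.6e-27. In MB468res-R8 the counts were 5427, 5589, and 5231, then 5773, 5553, and 5474, then 5096, 5656, and 5646, and 5217, 4937, and 4925 at 12 h, a change of -0.11 ± 0.041 (SE), adjusted p = 0.0205. The 3 MB468 libraries at 12 h were the lowest of the 24, and the lines differed in response by 1.22 ± 0.058 (SE), adjusted p = 1.02e-20. RARS (chr5:168486451-168519301) had 3993, 3988, and 3859 in MB468 at 0 h, 3727, 3931, and 3474 at 0.5 h, 3700, 4147, and 4241 at 2 h, and 2403, 2436, and 2448 at 12 h, a change of -0.70 ± 0.048 (SE), adjusted p = 1.7e-16. In MB468res-R8 it had 4121, 3783, and 4149, then 3939, 4145, and 3846, then 4027, 4036, and 4175, and 5215, 5689, and 5336 at 12 h, a change of 0.43 ± 0.047 (SE), adjusted p = 2.17e-10. All libraries of the lines at 12 h lay on opposite sides of those at 0 h, and the line difference was 1.13 ± 0.067 (SE), adjusted p = 9.59e-18. SARS (chr1:109213918-109238182) gave the mirror image, with 8046, 8178, and 8808 in MB468 at 0 h, 8980, 8622, and 9607 at 0.5 h, 8866, 8962, and 8458 at 2 h, and 12530, 12490, and 12920 at 12 h, a change of 0.60 ± 0.047 (SE), adjusted p = 3.57e-14. In MB468res-R8 it had 8030, 9207, and 8035, then 8745, 8621, and 8787, then 8377, 9513, and 8584, and 5780, 5819, and 5811 at 12 h, a change of -0.54 ± 0.048 (SE), adjusted p = 2.66e-12. The line difference for SARS was -1.14 ± 0.067 (SE), adjusted p = 3.89e-17.

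**Figure D4:**
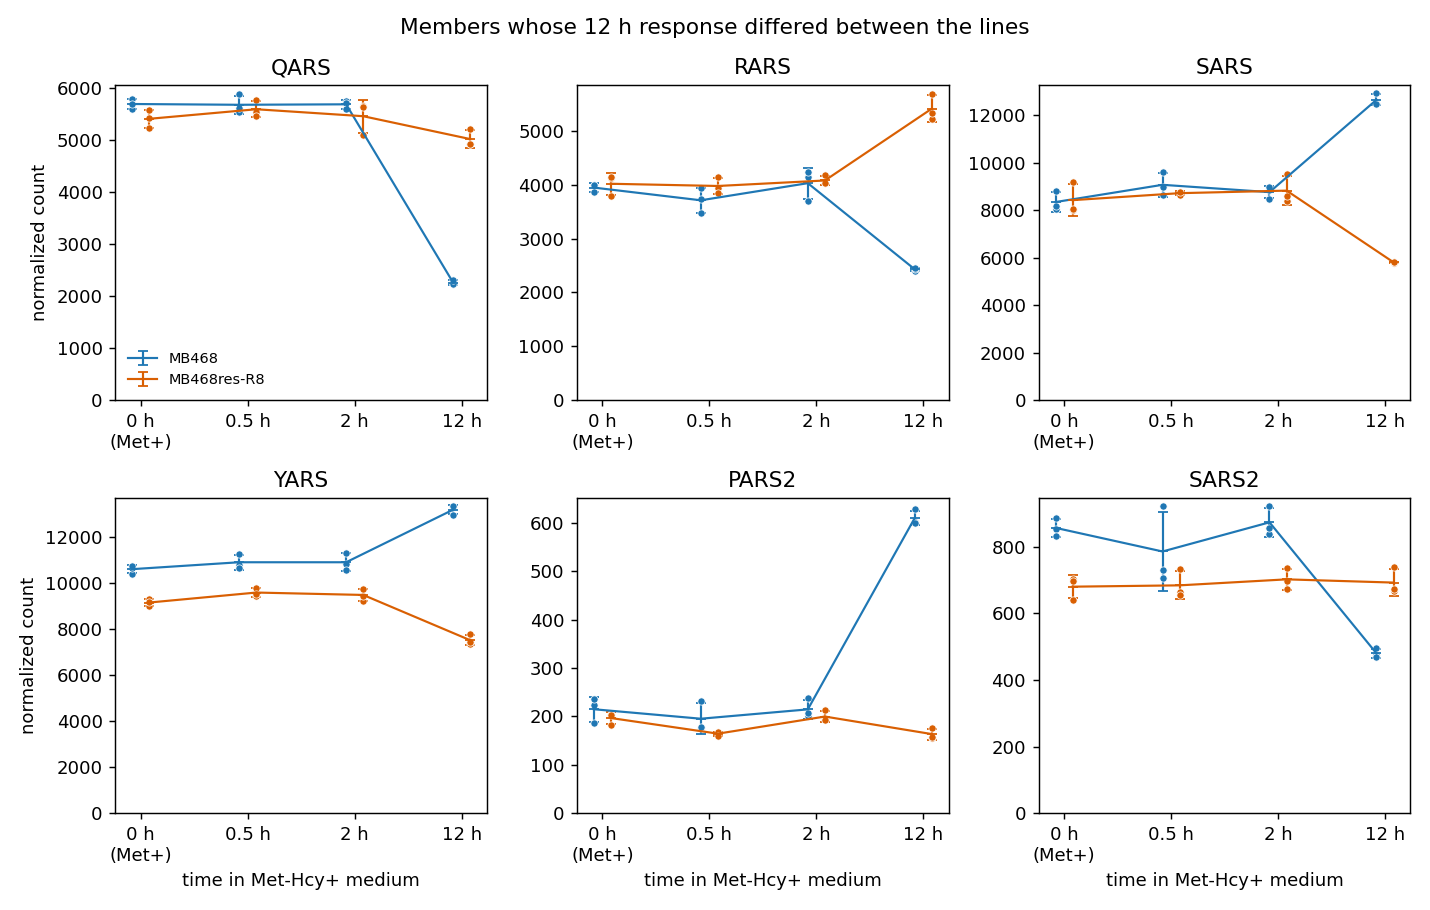
Members whose response at 12 h differed between the lines. Points are single libraries in normalized counts and lines join group means with SD (n = 3) for MB468 (blue) and MB468res-R8 (orange); QARS, RARS, and SARS2 drop at 12 h in MB468, where SARS, YARS, and PARS2 rise, and the levels of 0.5 and 2 h stay near those of 0 h.

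AARS was lower at 12 h in both lines, and more so in MB468res-R8. In MB468 it had 16560, 16030, and 18160 normalized counts at 0.5 h, 15240, 14890, and 14180 at 2 h, and 11740, 11480, and 12250 at 12 h, where the change was -0.29 ± 0.044 (SE), adjusted p = 2.35e-07. In MB468res-R8 it had 12670, 12860, and 13000, 11110, 12170, and 11860, and 6055, 6666, and 6277 at these times, with a change at 12 h of -0.86 ± 0.045 (SE), adjusted p = 1.46e-19 and a line difference of -0.57 ± 0.063 (SE), adjusted p = 3.36e-10. GARS was lower by the same order in both, from the levels at 0 h given above to 9055, 9410, and 9223 at 12 h in MB468 (-0.53 ± 0.046 (SE), adjusted p = 6.32e-13) and 12840, 14450, and 13360 in MB468res-R8 (-0.55 ± 0.046 (SE), adjusted p = 3.68e-13), and its line difference was -0.02 ± 0.065 (SE), adjusted p = 0.783. EPRS had 14240, 13960, and 13330 in MB468 and 6745, 7451, and 7058 in MB468res-R8 at 12 h, changes of -0.11 ± 0.038 (SE), adjusted p = 0.00874 and -0.25 ± 0.039 (SE), adjusted p = 8.09e-07. KARS, which charges lysine in both compartments (chr16:75627474-75648643), was near its 0 h level in MB468 at -0.08 and rose in MB468res-R8 from 8586, 7975, and 8339 to 11860, 12300, and 12000, a change of 0.54 ± 0.036 (SE), adjusted p = 2.66e-16. CARS was not called at 12 h in either line, with 264, 362, and 402 normalized counts in MB468 and 279.9, 245, and 249 in MB468res-R8.

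Among the mitochondrial members, 6 were higher at 12 h in both lines: AARS2, CARS2, LARS2, NARS2, WARS2, and YARS2. With the spike-in scaling, 4 mitochondrial members in all were called higher in MB468 and 8 in MB468res-R8, so that not all of these 6 kept their call in MB468. LARS2 went to 1265, 1346, and 1393 normalized counts in MB468 (0.62 ± 0.056 (SE), adjusted p = 4.78e-13) and to 1162, 1158, and 1119 in MB468res-R8 (0.66 ± 0.058 (SE), adjusted p = 6.09e-13), above every library at 0 h. AARS2 went to 1698, 1607, and 1597 in MB468 (0.47 ± 0.056 (SE), adjusted p = 1.22e-09) and to 1195, 1042, and 1117 in MB468res-R8 (0.20 ± 0.059 (SE), adjusted p = 0.00357). YARS2 rose by 0.59 and 0.64 and WARS2 by 0.57 and 0.41 on the log2 scale. EARS2, HARS2, and IARS2 were lower in MB468 (log2 changes of -0.25, -0.19, and -0.20) and higher in MB468res-R8 (0.36, 0.36, and 0.29), each with a called line difference.

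PARS2, the prolyl enzyme (chr1:54756898-54764523), had the largest change against 0 h of the mitochondrial members other than VARS2. In MB468 it had 223, 236, and 186 normalized counts at 0 h, 176, 178, and 233 at 0.5 h, 200.1, 237, and 207 at 2 h, and 602, 601, and 628 at 12 h, a log2 change of 1.49 ± 0.096 (SE), adjusted p = 3.17e-17. In MB468res-R8 the counts were 205, 202, and 183, then 167, 167, and 159.7, then 195, 212, and 192, and 156, 158, and 176 at 12 h, a change of -0.27 ± 0.11 (SE), adjusted p = 0.0295. The MB468 libraries at 12 h stood above the other 21, and the line difference was -1.76 ± 0.14 (SE), adjusted p = 1.57e-13. SARS2 had 706, 731, and 922 in MB468 at 0.5 h, 924, 839, and 858 at 2 h, and 476, 496, and 468 at 12 h, a change of -0.84 ± 0.074 (SE), adjusted p = 3.83e-13. MB468res-R8 had 733, 664, and 656, 674, 736, and 697, and 739, 666, and 672, a change at 12 h of 0.02 ± 0.075 (SE), adjusted p = 0.798, and the line difference was 0.87 ± 0.10 (SE), adjusted p = 3.75e-09. VARS2 was called lower in MB468res-R8 at 12 h (-2.86 ± 1.08 (SE), adjusted p = 0.0294), but on 3.17, 64.9, and 30.1 normalized counts at 0 h and 4.47, 1.14, and 6.61 at 12 h, which overlapped. Its other MB468res-R8 libraries had 33.1, 7.26, and 2.46 at 0.5 h and 1.07, 3.24, and 5.61 at 2 h. In MB468 it had 8.08, 9.56, and 5.62 at 0 h, 5.95, 25.7, and 0 at 0.5 h, 18.8, 7.77, and 1.25 at 2 h, and 6.11, 7.55, and 8.24 at 12 h, and no change was called.

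Divided by their place in the amino acid response, the cytosolic members had medians of opposite sign in MB468res-R8. The lists were chosen with earlier results of these data known, so the division describes these values and is not a test. Of 13 cytosolic members usually listed as ATF4 targets (AARS, CARS, EPRS, GARS, IARS, LARS, MARS, NARS, SARS, TARS, VARS, WARS, and YARS), 0 were higher and 8 lower at 12 h in MB468res-R8 in edgeR's test, with a median log2 change of -0.34. Of the other 7, 6 were higher and 1 lower, with a median of 0.41, beside 30.2% and 31.1% of all genes. In MB468 the lists gave 3 higher and 6 lower (median -0.11) and 2 higher and 4 lower (median -0.29). The shares of all genes there were 36.1% and 34.7%. The line difference was called higher for 1 and lower for 7 of the 13 (median -0.16). For the 7 it was called higher for 5 and lower for 0 (median 0.70). Of all genes, 26.2% were called higher and 30.3% lower, with a median of -0.05. The 7 cytosolic genes with TGATGNAA in their promoter window were all among the 13, and 10 of the 13 had a window. Of the 6 others with a window 0 held the letters, and of the listed genes EPRS, SARS, and WARS lacked them. Under spike-in scaling at 12 h, 0 of the 13 were higher and 5 lower and 6 of the 7 were higher and 0 lower in MB468res-R8, whereas in MB468 these counts were 1 and 7 for the 13 and 0 and 5 for the 7. The line difference was then called higher for 1 and lower for 1 of the 13 (median 0.10), and higher for 5 and lower for 0 of the 7.

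**Figure D5:**
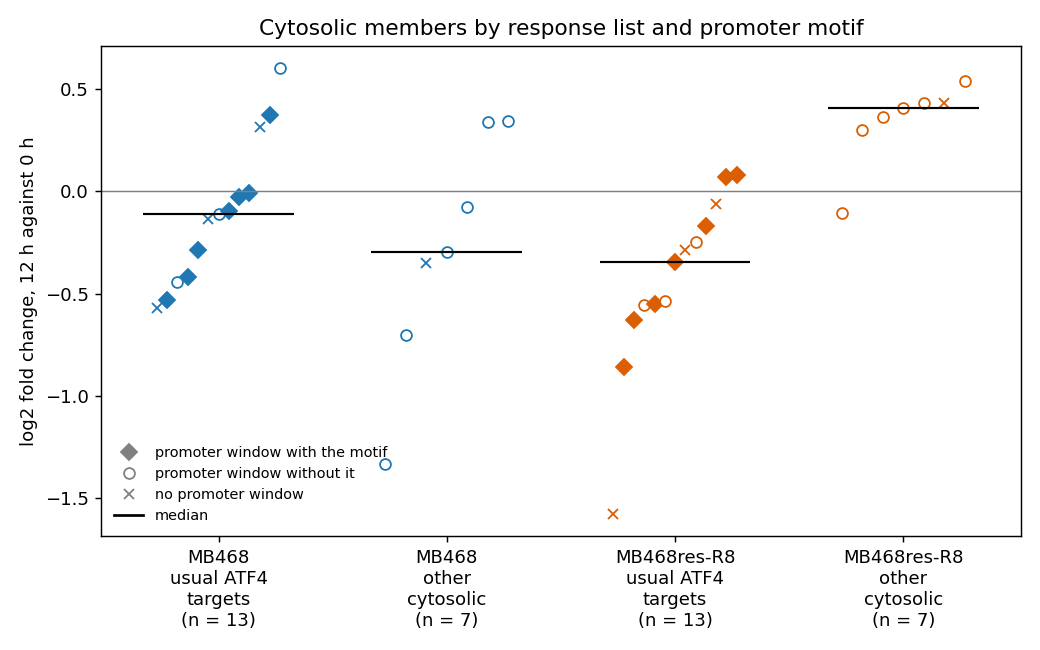
Cytosolic members at 12 h by response list. Points are log2 fold changes against 0 h of the 13 usual ATF4 targets and the 7 other cytosolic members in MB468 (blue) and MB468res-R8 (orange), diamonds mark a promoter window with the motif, open circles a window without it, and crosses genes with no window, and bars are medians (-0.11, -0.29, -0.34, and 0.41 from left to right).

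The rest of the amino acid response gave different counts in the lines. Of 36 genes of that response, 24 were higher and 10 lower at 12 h in MB468 (median 0.23), beside 36.1% and 34.7% of all genes, and CHAC1, a glutathione-degrading enzyme, rose by 4.40 and PCK2, a mitochondrial enzyme that makes phosphoenolpyruvate, fell by 1.28 on the log2 scale. In MB468res-R8, 5 were higher and 29 lower (median -0.59), beside 30.2% and 31.1%. The line difference was called for 1 upward and 27 downward, beside 26.2% and 30.3% of all genes. With the spike-in scaling the counts in MB468 were 15 and 11 with a median of 0.00, which took the median of this list to the other side of 0. ATF4 had 25670 ± 108 normalized counts (SD, n = 3) in MB468 at 0 h and 28230 ± 396 at 12 h, and 23350 ± 845 and 19920 ± 286 in MB468res-R8. ASNS, asparagine synthetase and a classical ATF4 target, had 8010 ± 771 and 4135 ± 129 in MB468 and 4947 ± 508 and 2228 ± 58.6 in MB468res-R8, with log2 changes of -0.95 ± 0.068 (SE), adjusted p = 1.43e-11, and -1.15 ± 0.071 (SE), adjusted p = 2.37e-12. The direction in MB468 is opposite to the paper's quantitative PCR, which reported ASNS upregulated in Met-Hcy+ medium. Its control was Met+ medium at 12 h, whereas the reference here is 0 h. The reason for the difference was not tested.

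The lists of this paragraph are small, and their counts at 12 h stand beside 36.1% of all genes higher and 34.7% lower in MB468 and 30.2% and 31.1% in MB468res-R8. Of the 8 synthetases of the multisynthetase complex (EPRS, IARS, LARS, MARS, QARS, RARS, KARS, and DARS), 0 were higher and 5 lower at 12 h in MB468 (median -0.12), and 3 were higher and 4 lower in MB468res-R8 (median -0.08). Its scaffold genes EEF1E1 (0.59), AIMP1 (0.40), and AIMP2 (0.24) were all higher in MB468res-R8 at 12 h, whereas in MB468 0 were higher and AIMP2 was lower (-0.42). The line difference was called higher for all 3, beside 26.2% of all genes. Cytosolic elongation factors had 0 of 6 tested higher and 4 lower in MB468 (median -0.40, lowest EEF2 at -0.65) and 5 higher and 0 lower in MB468res-R8 (median 0.19). Of the factors of mitochondrial translation, 8 of 12 were higher and 2 lower in MB468 (median 0.25) and 9 higher and 0 lower in MB468res-R8 (median 0.40). Of 14 other genes of tRNA charging and maturation that were tested, 5 were higher and 4 lower in MB468, with SEPSECS, which makes selenocysteinyl-tRNA, highest at 0.88, and 9 were higher and 1 lower in MB468res-R8, with MTFMT, which formylates mitochondrial Met-tRNA, highest at 0.63. By the structural class of the enzyme, 5 of 19 class I members were higher and 8 lower and 9 of 18 class II members were higher and 8 lower in MB468, and in MB468res-R8 the counts were 8 and 7 and 9 and 4. Scaled by the spike-ins, the counts of higher and lower calls in MB468 were 0 and 6 for the complex, 0 and 1 for its scaffold genes, 0 and 4 for elongation factors, 4 and 2 for mitochondrial factors, 1 and 5 for other charging genes, 3 and 9 for class I, and 2 and 9 for class II. In MB468res-R8 they were 3 and 1 for the complex, 2 and 0 for its scaffold genes, 2 and 0 for elongation factors, 6 and 0 for mitochondrial factors, 6 and 0 for other charging genes, 8 and 2 for class I, and 6 and 3 for class II.

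Between 2 and 12 h most members were called changed, as were most of all genes. In MB468, 5 cytosolic members were higher and 11 lower at 12 h than at 2 h and 10 mitochondrial members were higher and 4 lower, beside 34.6% and 35.1% of all genes, and the medians were -0.13 and 0.28. Scaled by the spike-ins, the counts were 5 higher and 3 lower cytosolic and 10 higher and 1 lower mitochondrial, the medians 0.05 and 0.47, and EPRS (0.04), KARS (0.03), LARS (0.07), and NARS (0.09) turned to the higher side without a call. Without the MB468 2 h replicate 2 library, 14 cytosolic and 14 mitochondrial members were called in either direction. In MB468res-R8, 6 cytosolic members were higher and 9 lower and 10 mitochondrial members were higher and 1 lower, beside 30.7% and 31.8%, with medians of -0.06 and 0.23. There the spike-in scaling gave 6 and 6 and 7 and 0, with medians of 0.01 and 0.31. MARS changed between 2 and 12 h by -0.08 ± 0.040 (SE), adjusted p = 0.0859, in MB468 and by -0.70 ± 0.040 (SE), adjusted p = 2.14e-18, in MB468res-R8, and MARS2 by 1.01 ± 0.073 (SE), adjusted p = 1.19e-15, and 0.09 ± 0.070 (SE), adjusted p = 0.297. These comparisons share the 12 h libraries with those against 0 h.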

How the data were processed

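Libraries were poly(A)-selected and read as single ends of 100 bp. Per the submitters' processing notes, reads were aligned with HISAT2 2.1.0 to GRCh38 (hg38) and counted per gene with featureCounts of Subread 1.5.3, and the deposited values are raw read counts per gene and per ERCC spike-in (92 spike-ins). The authors' normalized table and their table of fold changes and p-values were not used. The members and lists were chosen with earlier results of these data known.

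Counts from 24 libraries were fitted with edgeR 4.0.16 in R 4.3.3 (limma 3.58.1), with 1 mean for each of 8 groups, after filterByExpr (minimum count 10, minimum total 15), which left 14741 of 26645 gene entries, and TMM scaling. Spike-ins were kept out of library sizes, and the count table held 4 repeated symbols. The quasi-likelihood test gave 12 comparisons: the lines at 0 h, each line at 0.5, 2, and 12 h against 0 h, the line differences in these responses, and 12 h against 2 h. P-values were adjusted by Benjamini-Hochberg over all genes tested, and 0.05 was the threshold. Exact permutation of 3 libraries against 3 cannot give a p below 0.1, so that tests of single genes rest on the edgeR fit. Normalized counts are counts per TMM-scaled library times the mean of these library sizes. The code was tested on simulated data.

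Given with a value in every library were MARS and MARS2. Of the other members, so were the cytosolic 5 and the mitochondrial 3 with the largest called change in any response. The same holds for the cytosolic 3 and the mitochondrial 2 with the largest line difference in response. The cytosolic 3 and the mitochondrial 3 with the largest difference at 0 h are given at least for the libraries at 0 and 12 h. Other members, among them VARS, KARS, and TARS, were named by the rule that admits any member. Lists are given by their counts and medians, and the values of 1 member, which counts and medians include, are not reported here. Exon lengths, positions, and overlaps came from GENCODE release 44 (GRCh38), and promoter windows from RefSeq (GRCh38.p14). Copies on alternate contigs were sought with minimap2 2.31-r1302 (Python 3.11.15, pandas 2.3.3). The counting options that bear on strand and on reads with several positions are not given in the sources used here.

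Alternatives were DESeq2 1.42.0, median-of-ratios and spike-in scaling, a spike-in covariate, other filters, a threshold of 0.01, a fit to the groups compared, the replicate number as a block, another exon length, and leaving out each library. Total counts set the precision, which is lowest for members with few counts. No pair of replicates was alike enough to be 1 library deposited again, as the ratio of chi-square to its degrees of freedom was at least 2.31.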

Additional observations from a re-analysis of the deposited data

Results flagged for a closer look

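The responses of the lines to Met-Hcy+ medium differed in the results below, each by edgeR's quasi-likelihood test of the difference itself (the log2 change of MB468res-R8 minus that of MB468). At 2 h this was MARS2, with 1.12 (adjusted p = 1.12e-10). It was the sole member called at 2 h, where MARS2 was still below its 0 h level in MB468 and above it in MB468res-R8. The rise in MB468res-R8 was itself not called.

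At 12 h, 13 cytosolic members differed. The response was higher in MB468res-R8 for QARS (1.22), RARS (1.13), DARS (0.78), FARSA (0.70), KARS (0.61), and NARS (0.18). It was lower for SARS (-1.14), MARS (-0.60), YARS (-0.60), AARS (-0.57), TARS (-0.30), IARS (-0.16), and EPRS (-0.13), with adjusted p = 0.00842 for IARS and 0.0346 for EPRS. Both of these last differences had the other sign under the spike-in scaling. With that scaling 1 cytosolic member was called lower, and it was neither MARS nor YARS.

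Mitochondrial members differed at 12 h as well. The response was higher in MB468res-R8 for SARS2 (0.87), EARS2 (0.61), HARS2 (0.55), IARS2 (0.50), and RARS2 (0.40), and lower for PARS2 (-1.76), FARS2 (-0.63), TARS2 (-0.36), and AARS2 (-0.27). With the spike-in scaling, 1 mitochondrial member was called lower. PARS2 was the largest of the called line differences of members at 12 h in size, and its 3 libraries of MB468 at 12 h lay within 601 to 628 normalized counts.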

How the results depend on the processing

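At 12 h the calls were steady except under the spike-in scaling. Of the 30 member calls in MB468 at 12 h, 30 remained with DESeq2's Wald test, with median-of-ratios size factors, and with the spike-in covariate, and 21 with the spike-in scaling. Of the 28 in MB468res-R8, 28 remained with DESeq2's Wald test and 19 with the spike-in scaling. Of the 23 line differences at 12 h, 22 remained with DESeq2's Wald test, and with the spike-in scaling 14 remained, 7 were lost, and 2 changed sign. The replicate numbers were not used to pair the libraries, as in no comparison were all correlations of same-numbered deviations over 0.1. For MB468res-R8 at 2 h against 0 h their mean was 0.277 and the highest 0.466. So few correlations cannot exclude pairing. The replicate block left the counts at 12 h at 15 cytosolic and 15 mitochondrial calls in MB468 and lost no member's call in any comparison.

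With the spike-in totals as library sizes, cytosolic calls went from 8 to 13 for the lines at 0 h, from 1 to 18 for MB468 at 2 h, from 4 to 0 for MB468res-R8 at 0.5 h, from 13 to 7 for the line difference at 12 h, from 16 to 8 for MB468 between 2 and 12 h, and from 0 to 1 for the line differences at 0.5 and at 2 h. Mitochondrial calls went from 3 to 16 for MB468 at 2 h, from 7 to 1 and from 13 to 8 for MB468res-R8 at 0.5 and 12 h, from 11 to 7 for MB468res-R8 between 2 and 12 h, and from 1 to 3 for the line difference at 2 h. Among the changes that turned, of which others stand beside the results they touch, were SARS in MB468 at 0.5 h (to -0.10), MARS in MB468 at 2 h (to -0.37), EPRS between 2 and 12 h in MB468 (to 0.036), and the line difference of EPRS at 12 h (to 0.13). The medians of all genes moved with this scaling too, and the cause was not tested.

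With an adjusted p under 0.01, the calls at 0.5 h were 1 cytosolic and 3 mitochondrial in MB468 and 2 and 3 in MB468res-R8. DESeq2's Wald test gave 4 mitochondrial calls for MB468res-R8 at 0.5 h, 1 at 2 h, and 2 for the line difference at 2 h. With at least 10 counts in every library there was 1 mitochondrial call for MB468res-R8 at 2 h. With no filter on low counts there were 2 cytosolic calls for MB468 at 2 h, 1 cytosolic and 2 mitochondrial for MB468res-R8 at 2 h, 2 cytosolic for the line difference at 0.5 h, and 2 of each class for that at 2 h. With the longest transcript as the length, the medians per kilobase at 0 h were 2002 cytosolic and 265.6 mitochondrial in MB468 and 1901 and 230.8 in MB468res-R8. The cause of these differences was not tested.

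Leaving out 1 library gave 3 to 7 mitochondrial calls for MB468 at 0.5 h, lowest without MB468 0 h replicate 3 and highest without MB468 0.5 h replicate 3. For MB468res-R8 at 0.5 h it gave 2 to 7 mitochondrial calls, lowest without MB468res-R8 0.5 h replicate 2, and 2 to 4 cytosolic calls, lowest without MB468res-R8 0 h replicate 1. Without MB468 0 h replicate 3 there were 2 cytosolic calls for MB468 at 2 h (range 1 to 2), 1 for the line difference at 0.5 h (range 0 to 1), and 2 mitochondrial calls for that at 2 h (range 1 to 2). Without MB468res-R8 0 h replicate 1 there was 1 mitochondrial call for that line at 2 h (range 0 to 1). The few counts of VARS and VARS2 limit what their tests can show.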
